A study of Mus musculus with 5 samples.

Results

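The 30 genes described here are the p53 gene Trp53, its regulators and its targets in cell cycle arrest, DNA repair and stress signalling, chosen by symbol from a list and each represented by the transcript row with the highest mean count. All 30 were found among the 22869 gene symbols of the count table, and all 30 passed the filter on low counts. RNA was taken by laser capture from intervillus cells, the epithelium between the villi, in the proximal jejunum of mice on postnatal day 0. There were 2 mutant libraries (numbers 4 and 6; genotype Dnmt1 L/L; VillinCre, with both copies of the maintenance DNA methyltransferase gene Dnmt1 carrying the L allele) and 3 control libraries (numbers 1, 2 and 3; genotype Dnmt1 L/+, from littermates; the labels do not say whether they carry Cre). VillinCre is driven by the Villin promoter, which is active in the gut epithelium, so captured cells of other types are not its target. Mutant areas were chosen for lacking Ki67 staining and control areas for having it. Genotype, proliferation and this choice of areas therefore cannot be told apart in any comparison below, and neither can the sex-linked difference given with the depths.

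The p53 protein is a transcription factor held at a low level by the ubiquitin ligase Mdm2. After DNA damage, kinases stabilise p53, and it switches on genes that stop the cell cycle, repair DNA or lead to cell death, together with Mdm2, Ppm1d and other genes that shut it off again. Control lies mostly at the level of the protein, so the Trp53 transcript need not change when the pathway is active. Cdkn1a, whose product p21 blocks cyclin-dependent kinases, is the target best known for arrest in the intestinal epithelium.

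With 1 row per gene the mutant libraries held 8730268 and 10260760 reads and the control libraries 13356901, 13101286 and 10530200. Dnmt1 was at 37.8 and 40.5 CPM in the mutants, against 123, 128 and 95.1 CPM in the controls (CPM, counts scaled to a common library size with TMM factors; edgeR adjusted p = 3.74e-05). Mki67, the transcript of Ki67, was at 511 and 506 CPM in mutants and 927, 1022 and 773 CPM in controls (0.560-fold, edgeR adjusted p = 0.00284). The areas were chosen by staining for Ki67 and not by this transcript. Its fall did not pass in the FPKM settings (limma adjusted p = 0.189, 0.135 and 0.0537). The 4 Y-linked genes had 4 and 3 counts in the mutants and 2710 to 3160 in the controls, and Xist, the RNA that silences an X chromosome in females, was at 901 and 639 CPM in mutants and 2.96 to 4.26 CPM in controls. The groups therefore also differ in sex-linked transcripts. By these, both mutant libraries read as female and all control libraries as male, although the labels give no sex. Sex thus cannot be told apart from genotype here. Of 9 epithelium markers, summed CPM was 3919 to 4084 in mutants and 4022 to 4260 in controls, and none was at 0 in all libraries. Their calls went both ways. Krt18 rose (1.73-fold, edgeR adjusted p = 0.00255) and Cdx2 fell (0.520-fold, edgeR adjusted p = 0.00454). In both mutants 5 of the 9 were below all controls, against 21.8% of all genes. The rise of Krt18 was not called without mutant 4. Summed markers of other cells were higher in mutants than in all controls. They were 1827 to 1959 against 1188 to 1300 CPM for 11 mesenchyme markers (7 rose), 338 to 392 against 218 to 221 CPM for 9 immune markers (1 rose), 218 to 236 against 169 to 196 CPM for 8 endothelium markers (0 rose) and 52.4 to 56.5 against 21.9 to 33.4 CPM for 8 neuron and glia markers (5 tested, 1 rose). For 4 erythroid markers they were 36.0 to 36.3 against 29.2 to 34.99 CPM (3 tested, 1 fell, and 0 fell with any 1 of the 5 libraries left out). Both mutants lay above all controls in 11 of the 11 mesenchyme markers, against 21.7% of all genes. All 11 had an unadjusted p under 0.05, and the 7 rises stand against 6.11% of all genes tested. The rises of mesenchyme markers numbered 3 without control 1, 8 without control 2 and 8 without control 3. In each of the FPKM settings they numbered 0. The immune marker that rose was Csf1r. Without it, a choice made on these same data, the other 8 summed to 178 to 218 CPM in mutants and 147 to 179 CPM in controls. These sums overlap through control 3 alone, where Cd74 was at 91.25 CPM. The fold change was positive in 9 of the 9 immune markers, against 49.2% of all genes. Both mutants lay above all controls in 5 of the 9, against 21.7% of all genes. The 8 markers of differentiated enterocytes summed to 37360 to 39340 CPM in mutants and 15340 to 28730 CPM in controls. Of these 8 markers 5 rose, against 6.11% of all genes tested. The rises numbered 3 without mutant 4 and 0, 1 and 1 in the FPKM settings. The part of these differences in the results below was not tested, and in such bulk samples fewer cells of a type cannot be told apart from less RNA per cell. The labels do not state whether libraries are from different mice. The p-values are therefore relative to variation among these 5 libraries, which could be technical.

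Several of these genes carry a sequence near their start that resembles the p53 response element, shown here because p53 acts on its targets through such elements. The form searched for is a palindrome of 20 bases made of a half-site of 10 bases repeated without a gap, so both strands read alike. Half-sites with a gap between them were not counted as a match. Windows of 300 bases (250 before and 50 after a transcription start; RefSeq, build GRCm38.p6) were found for 23 of the 30 genes, all but Tnfrsf10b, Rrm2b, Perp, Ddb2, Xpc, Zmat3 and Trp53inp1. A window was counted where it matched the element with at most 3 mismatches and with the C and G of each half-site core intact. Such a match was present in 8 of the 23 genes (34.8%), against 441 of all 27025 genes with a window (1.63%). The genes were listed as known p53 targets or as Trp53 and its regulators, so this share describes the list and is no finding. Capitals below mark bases that match the element and lower case marks mismatches.
Cdkn1a: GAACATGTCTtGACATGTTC
Ccng1: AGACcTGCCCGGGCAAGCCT
Gtse1: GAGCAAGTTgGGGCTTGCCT
Ckap2: AGACATGTCCtGACTTGTCa
Rps27l: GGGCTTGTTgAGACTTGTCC
Aen: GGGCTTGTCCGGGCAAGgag
Sesn1: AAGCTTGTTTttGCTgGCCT
Trp53: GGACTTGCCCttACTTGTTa
The matches lie at chr17:29090928-29090947 (+ strand) for Cdkn1a, chr11:40755462-40755481 (- strand) for Ccng1, chr15:85859945-85859964 (+ strand) for Gtse1 and chr8:22186003-22186022 (- strand) for Ckap2. Those of the other four are at chr9:66946296-66946315 (+ strand) for Rps27l, chr7:78895937-78895956 (+ strand) for Aen, chr10:41887266-41887285 (+ strand) for Sesn1 and chr11:69580284-69580303 (+ strand) for Trp53 itself.

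Cdkn1a and Ccng1 are shown with their whole window because both rose and both hold a match with 1 mismatch. The Cdkn1a window is that of the more upstream of its 2 annotated starts (chr17:29090729-29091028, + strand), and its element runs from position -51 to -32 relative to the start. The Ccng1 window (chr11:40755237-40755536, - strand) has its element from -195 to -176. Capitals mark the element and any other exact half-site, and each sequence is written along the gene.
Cdkn1a: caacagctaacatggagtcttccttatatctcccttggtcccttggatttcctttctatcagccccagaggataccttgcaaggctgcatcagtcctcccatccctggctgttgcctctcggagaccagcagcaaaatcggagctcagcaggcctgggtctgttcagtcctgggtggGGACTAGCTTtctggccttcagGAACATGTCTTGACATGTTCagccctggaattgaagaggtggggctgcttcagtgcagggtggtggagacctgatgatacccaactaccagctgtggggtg
Ccng1: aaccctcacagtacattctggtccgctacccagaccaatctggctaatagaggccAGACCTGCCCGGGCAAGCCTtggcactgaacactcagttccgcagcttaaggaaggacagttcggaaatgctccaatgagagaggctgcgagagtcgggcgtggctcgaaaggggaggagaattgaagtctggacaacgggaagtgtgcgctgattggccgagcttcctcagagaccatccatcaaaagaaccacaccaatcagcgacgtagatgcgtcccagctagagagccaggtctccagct
Of the 10 genes that rose, 8 had a window and 2 of these held a match, and of the 20 that did not pass the test 15 had a window and 6 held one. A match in this window therefore went with both outcomes. No match says only that these 300 bases hold no stretch that met this rule (no gap, at most 3 mismatches, intact cores).

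In the mutants 10 of the 30 genes rose and 0 fell (edgeR, adjusted p under 0.05 over all rows tested). The genes that rose were Cdkn1a, Ccng1, Psrc1, Plk3, Zmat3, Trp53inp1, Eda2r, Phlda3, Gdf15 and Ephx1. That is 33.3% of the list, against 6.11% of all 14572 genes tested that rose and 4.17% that fell. The 30 genes were chosen with earlier results of these data known. The shares in this paragraph therefore describe the list and are no independent test of it. An unadjusted p under 0.05 was found for 13 of the 30 genes. DESeq2, edgeR's exact test and the fit with no filter on low counts each called 1 fall, that of Gtse1, in addition to the rises. The median log2 fold change was 0.39 over the 30 genes and -0.01 over all genes tested, and the fold change was positive in 21 of the 30 genes (against 49.2% of all genes). Both mutants lay above all controls in 15 of the 30 genes (50%, against 21.7% of all genes) and below them in 3 (against 21.8% of all genes). Without mutant 4, the count of rises was 5 of 30, against 2.67% of all genes. Cdkn1a, Ccng1, Psrc1, Zmat3 and Ephx1 rose whichever of the 5 libraries was left out. On the authors' deposited FPKM (reads scaled to transcript length and library size), whose ratios depart from those of the counts for some genes, 2 to 4 of the genes rose, and Cdkn1a and Ccng1 were among them in each setting.

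**Figure D1:**
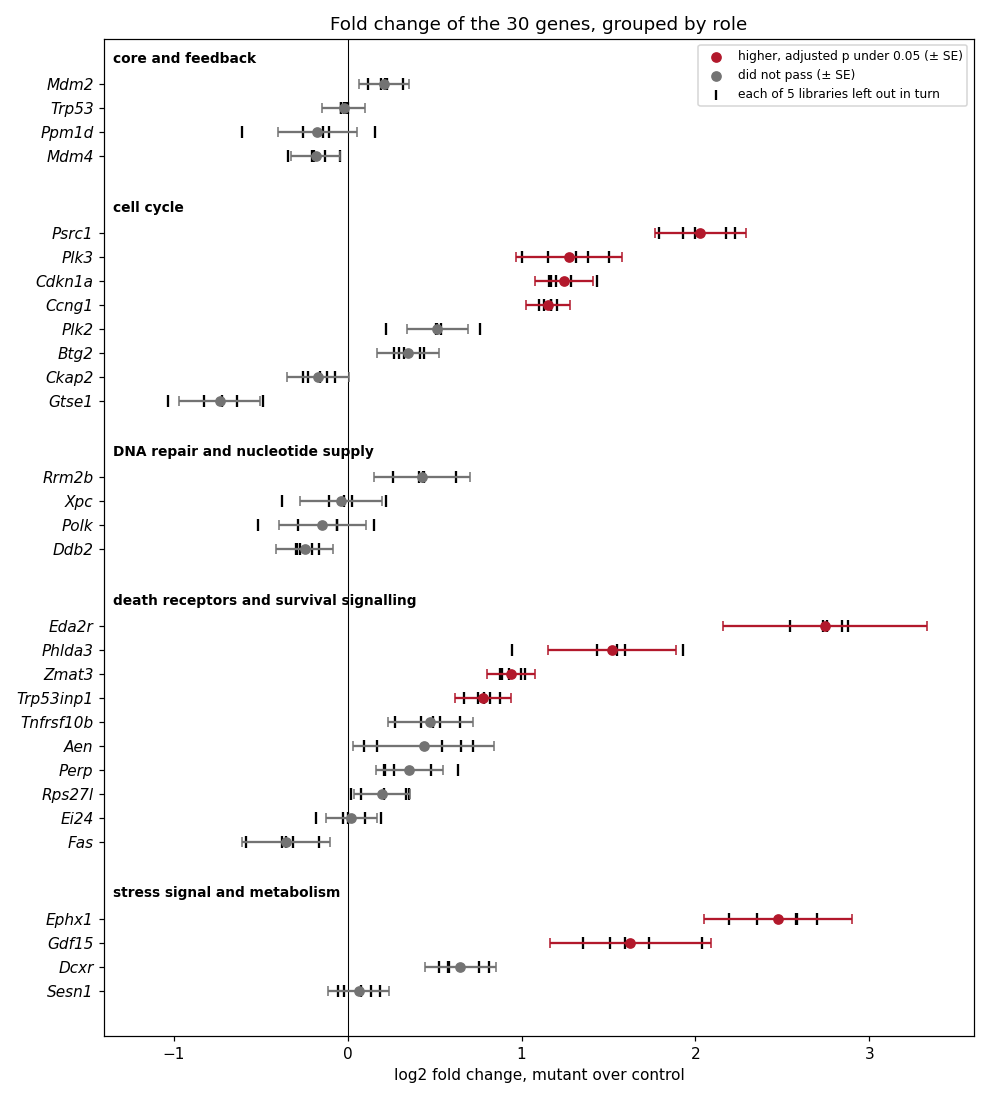
Log2 fold change (mutant over control) of the 30 genes grouped by role, with its standard error as bars and the fold change with each of the 5 libraries left out as ticks. The 10 genes in red passed the edgeR test, and all of them lie to the right of 0 with every library left out.

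The 4 genes at the core of the pathway did not pass the edgeR test in either direction, and 0 of them had an unadjusted p under 0.05 or were called by DESeq2. Trp53 was at 122 and 125 CPM in the mutants, against 130.0, 124 and 123 CPM in the controls. The groups overlap, with a difference of -0.02 ± 0.12 on the log2 scale (SE; edgeR adjusted p = 0.928). Mdm2, the ligase that degrades p53 and is itself a p53 target, was at 78.9 and 76.8 CPM in mutants and 58.4, 66.3 and 77.2 CPM in controls (log2 fold change 0.21 ± 0.14; edgeR adjusted p = 0.383). Control 3 lay between the 2 mutants, so the groups overlap. Mdm4, a relative of Mdm2 that masks the activation domain of p53, was at 75.6 and 61.5 CPM in mutants and 83.4, 73.6 and 76.5 CPM in controls (-0.18 ± 0.14; edgeR adjusted p = 0.439). Ppm1d, the phosphatase Wip1 that resets p53 signalling, was at 22.5 and 13.2 CPM in mutants and 20.98, 21.5 and 17.7 CPM in controls (-0.18 ± 0.23; edgeR adjusted p = 0.674). The 2 mutants stood on opposite sides of all the controls for Ppm1d, at a ratio of 1.70 between them.

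Among the 8 genes of the cell cycle, 4 rose, 0 fell and 4 did not pass. The areas were chosen by Ki67, so none of these is independent of that choice. Cdkn1a was at 92.9 and 87.1 CPM in the mutants, against 33.3, 33.2 and 47.6 CPM in the controls. Both mutants were well above the highest control, and Cdkn1a rose by 1.25 ± 0.17 on the log2 scale (edgeR adjusted p = 0.000359). Ccng1, which encodes cyclin G1, a p53-induced protein that acts on Mdm2 through the phosphatase PP2A, was at 248 and 240.0 CPM in mutants and 102, 110 and 118 CPM in controls. The libraries of each group lay close together, and the rise of 1.15 ± 0.13 had the lowest adjusted p of the 30 genes (edgeR adjusted p = 6.71e-05). Cdkn1a and Ccng1 are the 2 genes whose promoter windows are printed above.

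Psrc1, which encodes a microtubule-binding protein of the mitotic spindle also known as DDA3, was at 18.6 and 13.7 CPM in the mutants, against 3.80, 3.31 and 4.79 CPM in the controls. Its level was 4.08-fold higher in mutants (2.03 ± 0.26 on the log2 scale; edgeR adjusted p = 0.000277), and the groups were far apart. On the deposited FPKM the mean was 2.13 times as high in mutants as in controls, and Psrc1 did not pass the limma test. Plk3, a polo-like kinase of stress responses, was at 10.3 and 7.25 CPM in mutants and 3.80, 2.90 and 4.15 CPM in controls (1.27 ± 0.30; edgeR adjusted p = 0.0169). Its rise missed the threshold without mutant 4 (edgeR adjusted p = 0.187) or control 1 (0.0625).

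Plk2, its close relative, was at 44.4 and 30.5 CPM in the mutants, against 25.8, 26.5 and 26.2 CPM in the controls. The controls agreed to within 1 CPM while the mutants differed 1.46-fold, and the difference of 0.52 ± 0.18 log2 units did not pass (edgeR adjusted p = 0.0813), although it did without mutant 6 (0.0422). Btg2, which slows proliferation through mRNA deadenylation, was at 25.8 and 23.2 CPM in mutants and 21.7, 18.3 and 17.8 CPM in controls (0.35 ± 0.18; edgeR adjusted p = 0.239). For Plk2 and Btg2 both mutants were above all controls.

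Gtse1 and Ckap2 are p53 targets that are also made during G2 phase and mitosis, where their products bind microtubules. Gtse1 was at 11.9 and 8.18 CPM in the mutants, against 18.9, 16.7 and 14.5 CPM in the controls, with no overlap. Its difference of -0.74 ± 0.23 log2 units was the lowest of the 30 genes and missed the threshold (edgeR adjusted p = 0.0611), and it passed without control 3 (0.0418). Ckap2 was at 21.4 and 19.8 CPM in mutants and 23.6, 25.7 and 20.1 CPM in controls (-0.17 ± 0.18; edgeR adjusted p = 0.594). Both genes hold a match to the p53 element in their window, with 1 mismatch in Gtse1 and 2 in Ckap2.

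**Figure D2:**
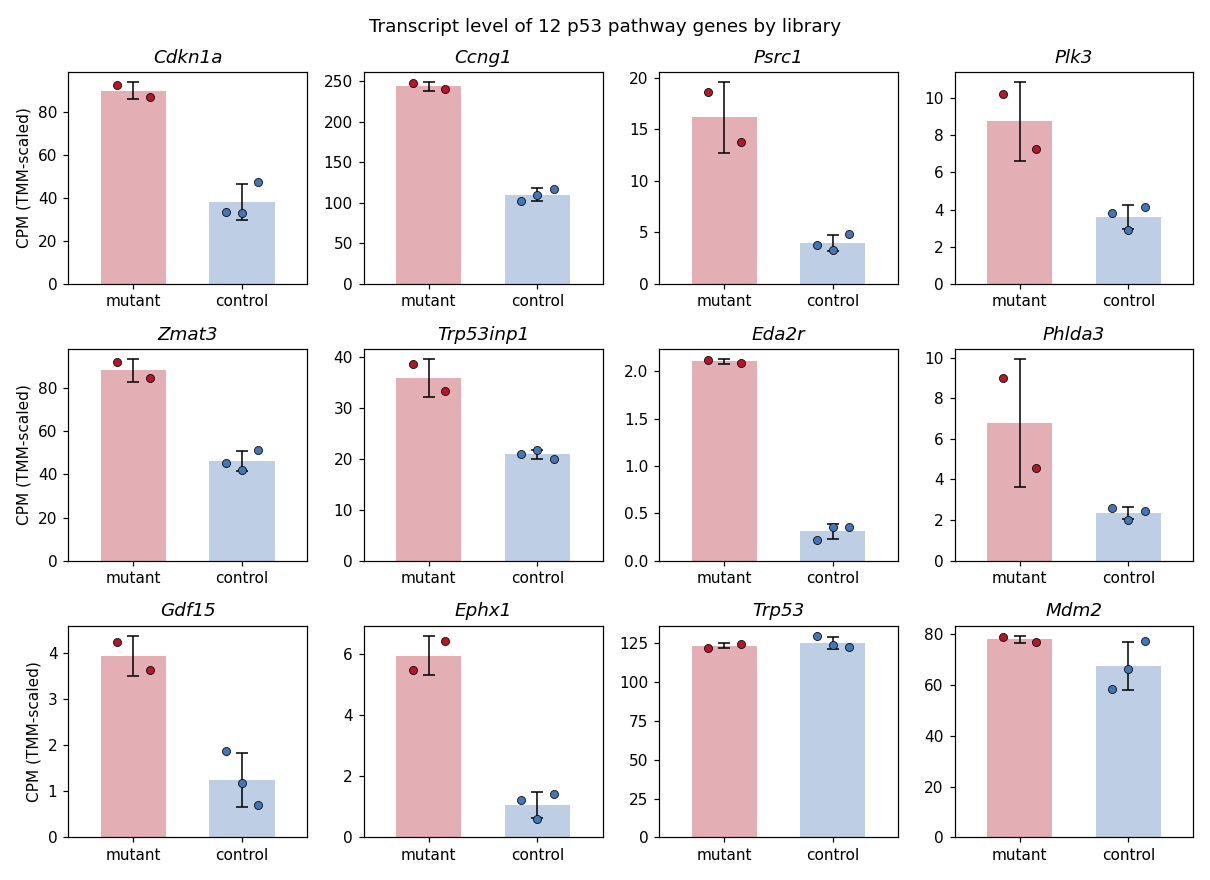
Level in each library (points, CPM after TMM scaling, linear axes from 0), with the mean of each group as a bar and its SD as an error bar, for the 10 genes that rose and for Trp53 and Mdm2. Both mutants lie above all 3 controls in the first 10 panels, whereas the groups overlap for Trp53 and Mdm2.

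None of the 4 genes of DNA repair and nucleotide supply passed the edgeR test in either direction, and 0 of them had an unadjusted p under 0.05 or were called by DESeq2. Rrm2b, the p53-inducible subunit of ribonucleotide reductase, was at 9.73 and 9.49 CPM in the mutants, against 7.21, 5.27 and 9.01 CPM in the controls (0.43 ± 0.27; edgeR adjusted p = 0.350). Both mutants were above all controls, the nearest being control 3. Ddb2 and Xpc, which recognise damaged bases for nucleotide excision repair, had log2 fold changes of -0.25 ± 0.17 and -0.04 ± 0.24. Ddb2 was below all controls in both mutants, and 23.8% of its exonic bases are shared with Acp2 on the opposite strand (GENCODE M21), whose reads cannot be told apart if counting ignored strand. Polk, a polymerase that copies past damaged bases, was at 15.9 and 10.03 CPM in mutants and 11.1 to 15.98 CPM in controls, a fold change of -0.15 ± 0.25 on the log2 scale.

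Of the 10 genes of death receptors and survival signalling, 4 rose, 0 fell and 6 did not pass. Zmat3, a zinc finger protein that binds RNA, was at 92.2 and 84.7 CPM in the mutants, against 45.4, 41.9 and 51.2 CPM in the controls. Its groups were widely separated, with a rise of 0.94 ± 0.14 (edgeR adjusted p = 0.000729). Trp53inp1, a nuclear protein that promotes p53 activity and autophagy, was at 38.6 and 33.3 CPM in mutants and 21.03, 21.7 and 20 CPM in controls (0.78 ± 0.16; edgeR adjusted p = 0.00735). The controls were close together, and the rise missed the threshold without mutant 4 (edgeR adjusted p = 0.114).

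Eda2r, a receptor of the tumour necrosis factor family that binds ectodysplasin A2, had 24 and 27 counts in the mutants, against 4, 6 and 5 in the controls. It was the least abundant of the 30 genes and had the highest fold change (2.75 ± 0.59 log2 units; edgeR adjusted p = 0.00886). Eda2r is also the only X-linked gene of the list, in libraries that differ in sex-linked transcripts. Its rise missed the threshold without mutant 4 (0.0818) or mutant 6 (0.0806). On the deposited FPKM its level was 0.341 and 0.668 in mutants and 0.0249 to 0.0372 in controls, a ratio of 15.9, and it did not pass there (limma adjusted p = 0.129 with pseudocount 1 and 0.0708 with pseudocount 0.1). Phlda3, an inhibitor of the survival kinase Akt, was at 9.02 and 4.55 CPM in mutants and 2.59, 2.01 and 2.46 CPM in controls (1.52 ± 0.37; edgeR adjusted p = 0.0181). Of the 30 genes Phlda3 had the widest gap between the mutants, with mutant 4 at 1.98 times mutant 6. Its rise missed the threshold without mutant 4 (0.291) or control 1 (0.0615).

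The 2 receptors of the extrinsic death pathway did not pass. Fas was at 6.02 and 8.02 CPM in the mutants, against 8.97, 9.29 and 8.73 CPM in the controls (-0.36 ± 0.25; edgeR adjusted p = 0.403). Both mutants were below all controls, and on the deposited FPKM the mutant mean was 0.470 of the control mean, also without passing. Tnfrsf10b, the mouse receptor for the death ligand TRAIL, was at 8.94 and 11.6 CPM in mutants and 6.83, 7.81 and 7.53 CPM in controls (0.47 ± 0.25; edgeR adjusted p = 0.240). For Tnfrsf10b both mutants were above all controls.

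The other four genes of this role were Perp, Aen, Ei24 and Rps27l. Perp, a membrane protein of desmosomes, was at 201 and 241 CPM in the mutants, against 136, 231 and 152 CPM in the controls (0.35 ± 0.19; edgeR adjusted p = 0.266). Control 2 lay between the mutants, and without it Perp passed at 0.64 log2 units (edgeR adjusted p = 0.0129). Aen, a nuclease induced by p53, Ei24, a protein of the endoplasmic reticulum, and Rps27l, a copy of a ribosomal protein that can bind Mdm2, had log2 fold changes of 0.44 ± 0.41, 0.02 ± 0.15 and 0.20 ± 0.16. Mutants and controls overlapped in all of these. Aen and Rps27l also hold a match to the p53 element.

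Of the 4 genes of stress signalling and metabolism, 2 rose. Gdf15, a secreted stress cytokine of the TGF-beta family, had 48 and 47 counts in the mutants, against 34, 20 and 10 in the controls. In CPM these were 4.25 and 3.63 in mutants and 1.87, 1.18 and 0.704 in controls, so the controls varied more than the mutants. The rise of 1.63 ± 0.46 was the nearest to the threshold of the 10 (edgeR adjusted p = 0.0408). It missed it without mutant 4 (0.196), mutant 6 (0.116), control 2 (0.0764) or control 3 (0.0795). The ratio on the deposited FPKM was 4.82, against 3.09-fold in counts.

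Ephx1, microsomal epoxide hydrolase, an enzyme that detoxifies epoxides, had 62 and 83 counts in the mutants, against 22, 10 and 20 in the controls. Its level was 5.49 and 6.40 CPM in mutants and 1.21, 0.592 and 1.41 CPM in controls, a rise of 2.47 ± 0.43 (edgeR adjusted p = 0.00239). Dcxr, which reduces dicarbonyls and L-xylulose, was at 20.1 and 23.5 CPM in mutants and 12.6, 16.6 and 12.5 CPM in controls. Both mutants were above all controls, and the difference of 0.65 ± 0.20 log2 units missed the threshold (edgeR adjusted p = 0.0579) but passed with DESeq2 (adjusted p = 0.042), edgeR's exact test (0.0323) or without control 2 (0.0244). Sesn1, a sestrin that restrains the growth kinase mTORC1, was at 27.2 and 30.2 CPM in mutants and 28.1, 31.5 and 22.7 CPM in controls (0.06 ± 0.18; edgeR adjusted p = 0.863).

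Compared per transcript length, the 30 genes spanned a wide range of levels. In the deposited FPKM the highest in controls were Rps27l (311 ± 49.6 FPKM in mutants and 259 ± 49.3 FPKM in controls; SD, n = 2 and 3), Perp (102 ± 12.99 and 81.7 ± 25.6 FPKM) and Trp53 (59.4 ± 6.04 and 62.0 ± 8.65 FPKM). These 3 did not pass the test. In mutants Ccng1 was at 62.9 ± 1.01 FPKM and Cdkn1a at 41.3 ± 3.55 FPKM, against 29.3 ± 2.35 and 17.8 ± 1.65 FPKM in controls. In mutants the level of Ccng1 was thus within the spread of that of Trp53. The mean over mutants was below 10 FPKM for the other 8 genes that rose, and the mean over controls was below 1 FPKM for Ephx1, Gdf15 and Eda2r.

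**Figure D3:**
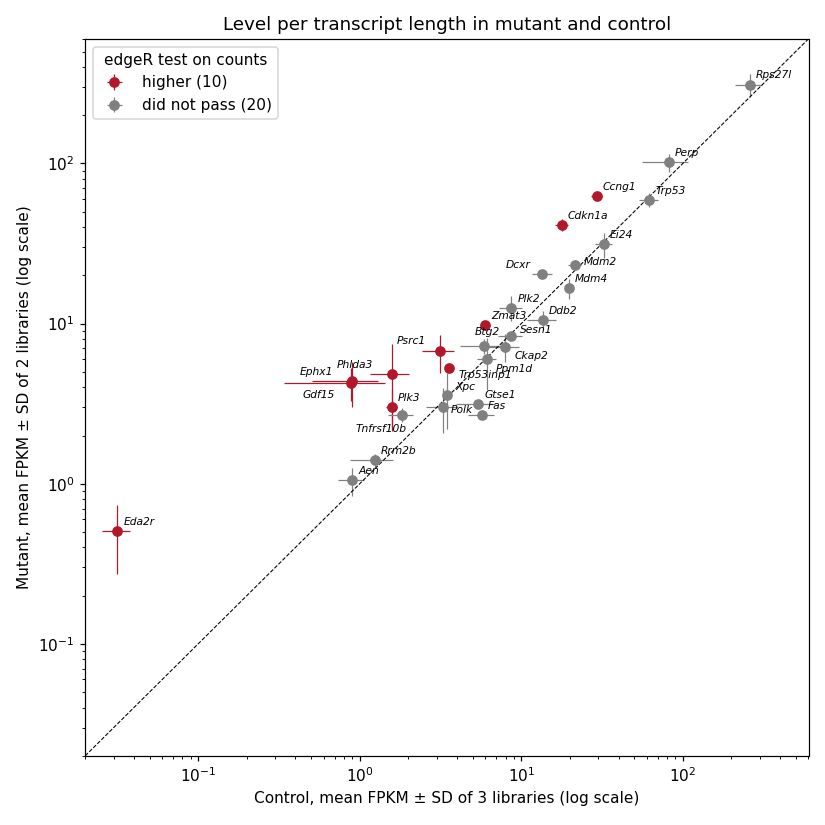
Mean deposited FPKM of the 30 genes in mutants (vertical axis) and controls (horizontal axis), both on log scales, with SD over 2 mutant and 3 control libraries as bars and a dashed line of equality. Ccng1 and Cdkn1a are the only genes with a mutant mean above 10 FPKM among those that rose in the count test, and Eda2r is the lowest in both groups.

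Where a gene had several transcript rows, these mostly repeated nearly the same reads, apart from 1 row each of Fas and Eda2r with fewer counts, and all rows of a gene had the same call. The rows of Cdkn1a had log2 fold changes of 1.25 and 1.25, those of Trp53 -0.02 and -0.02, and those of Psrc1 2.03 and 2.03. The second Fas row had 8 and 13 counts in mutants and 20, 17 and 20 in controls (-0.44 ± 0.57; edgeR adjusted p = 0.675). The Eda2r row, with 11 and 15 counts in mutants and 1, 2 and 2 in controls, rose by 3.28 ± 0.79 (edgeR adjusted p = 0.0173). Of the genes that rose, Cdkn1a shares 7.7% of its exonic bases with another annotated gene on the opposite strand, Plk3 3.3% and Ephx1 3.7% with a pseudogene on its own strand (GENCODE M21).

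DNA methylation acts at CpG dinucleotides, so the CpG content of the windows is given as a description; methylation was not measured here. The ratio of observed to expected CpG was 0.60 (median) over the 11 windows of the genes that rose and 0.77 over the 21 windows of those that did not pass, against 0.38 over all 32851 windows. Among the genes that rose, it was 0.04 and 0.30 in the 2 windows of Gdf15, 0.23 in Ephx1, 0.26 in Eda2r, 0.60 in Ccng1, 0.69 in Phlda3, 0.76 in Plk3, 0.82 and 0.83 in Psrc1, and 0.09 and 0.79 in the upstream and downstream windows of Cdkn1a. The genes that rose thus include windows with few CpG sites and windows with many.

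Other genes of the pathway were taken from 4 lists, also chosen with earlier results of these data known. Of 9 p53 targets in apoptosis, 2 rose, 1 fell and 6 did not pass, with a median log2 fold change of 0.05. Of all genes tested 6.11% rose and 4.17% fell, so these are small counts on a short list. Pmaip1, which encodes the BH3-only protein Noxa, was at 41.4 and 38.5 CPM in the mutants, against 12.2, 17.3 and 21.8 CPM in the controls (1.23 ± 0.21; edgeR adjusted p = 0.00232). Bax, the pore-forming executor of mitochondrial death, was at 73.1 and 69.9 CPM in mutants and 41.7, 45.4 and 45.1 CPM in controls (0.70 ± 0.13; edgeR adjusted p = 0.00459). The 2 groups were apart in both genes, and the rise of Bax missed the threshold without mutant 4 (0.0621).

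Bbc3, which encodes Puma, had 25 and 30 counts in the mutants, against 15, 12 and 19 in the controls (1.25 ± 0.51; edgeR adjusted p = 0.144). Pycard, an inflammasome adaptor, was the one that fell, at 195 and 271 CPM in mutants and 437, 521 and 370 CPM in controls (-0.92 ± 0.18; edgeR adjusted p = 0.00495). It did not pass without mutant 4 (edgeR adjusted p = 0.1).

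Of 25 other p53 targets, 23 were tested, 3 rose and 0 fell (edgeR; 7 had an unadjusted p under 0.05, and DESeq2 and edgeR's exact test each called 1 fall), with a median of 0.06. Of all genes tested 6.11% rose. Without mutant 4 the rises numbered 0, and without mutant 6 or control 1 they numbered 1. The highest fold change was that of Trp53cor1, the noncoding RNA lincRNA-p21, which lies beside Cdkn1a and is listed under its older symbol Gm16197. It had 32 and 20 counts in the mutants, against 1, 1 and 3 in the controls (4.30 ± 0.75; edgeR adjusted p = 0.00251), and missed the threshold without mutant 4 (0.0607). Ddit4l, an inhibitor of mTORC1 signalling, had 15 and 30 counts in mutants and 5, 7 and 6 in controls (2.29 ± 0.60; edgeR adjusted p = 0.0276). Sco2, needed to assemble cytochrome c oxidase, was at 32.6 and 37.9 CPM in mutants and 24.7, 23.2 and 24.6 CPM in controls (0.54 ± 0.16; edgeR adjusted p = 0.0430).

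The rise of Ddit4l was lost without mutant 4, mutant 6 or control 1 (edgeR adjusted p up to 0.307), and that of Sco2 without any 1 of the 5 libraries (up to 0.304). Gadd45a, a stress gene of growth arrest, was at 30.9 and 28.5 CPM in mutants and 18.4, 26.5 and 27.8 CPM in controls (0.29 ± 0.19; edgeR adjusted p = 0.361).

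Of 19 kinases and modifiers of p53, 16 were tested, 0 rose and 2 fell (edgeR; DESeq2 also called 0 rises, and 6 had an unadjusted p under 0.05), with a median of -0.19. The shares over all genes tested were 6.11% higher and 4.17% lower. The 2 falls are a small count on a short list. The fold change was positive in 2 of the 16 tested genes, against 49.2% of all genes. Both mutants lay below all controls in 8 of the 16 (against 21.8% of all genes) and above them in 0 (against 21.7%). Hipk2, a kinase that phosphorylates p53, was at 186 and 198 CPM in the mutants, against 269, 237 and 283 CPM in the controls (-0.45 ± 0.13; edgeR adjusted p = 0.0468). Rpl11, a ribosomal protein that can bind Mdm2, had 55 and 68 counts in mutants and 157, 167 and 151 in controls (-0.94 ± 0.26; edgeR adjusted p = 0.0359), and reads of such ribosomal protein genes can be split with their processed copies. Hipk2 missed the threshold in 4 of the 5 fits with a library left out (edgeR adjusted p up to 0.289) and with RLE or upper-quartile normalization. Rpl11 missed it in all 5 (up to 0.177).

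The last list holds 16 genes of mitosis known to be lowered through p21 and the DREAM repressor complex. Of these 11 fell and 0 rose (edgeR; with DESeq2 12 and 0, and 15 had an unadjusted p under 0.05), with a median of -0.82. Of all genes tested 4.17% fell. Both mutants lay below all controls in all 16, against 21.8% of all genes. Ccnb2, a cyclin of mitosis, was at 38.6 and 42.8 CPM in the mutants, against 90.0, 92.6 and 82.2 CPM in the controls (-1.12 ± 0.14; edgeR adjusted p = 0.000198). Cenpa, the histone of centromeres, was at 32.1 and 27.6 CPM in mutants and 57.2, 66.6 and 59.2 CPM in controls (-1.03 ± 0.15; edgeR adjusted p = 0.000745). Foxm1, a transcription factor of mitotic genes, was at 33.3 and 32.3 CPM in mutants and 62.6, 56.6 and 55.2 CPM in controls (-0.83 ± 0.14; edgeR adjusted p = 0.00252). The other falls were those of Ccnb1, Ccna2, Cdc20, Plk1, Bub1b, Birc5, Prc1 and Kif23, with log2 fold changes between -0.94 and -0.68. These genes mark proliferating cells and the areas were chosen by Ki67, so the list is not independent of that choice. The falls numbered 7 without mutant 4 and 7 without mutant 6, and 1, 2 and 5 in the 3 settings on the deposited FPKM.

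**Figure D4:**
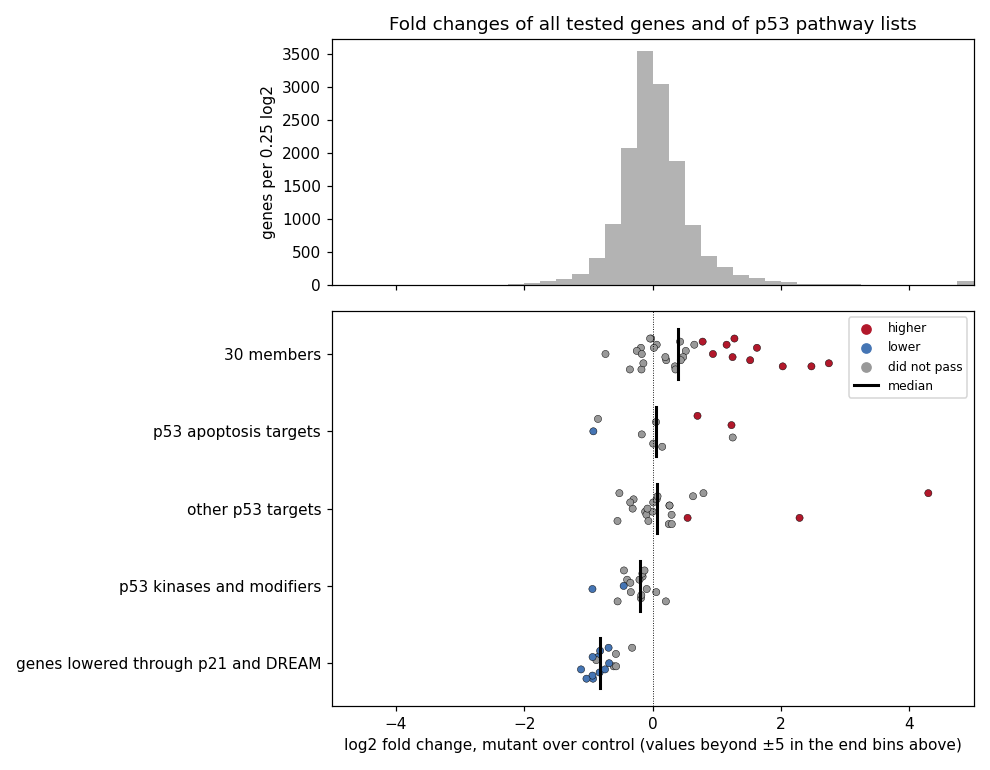
Upper panel, number of genes tested by log2 fold change (mutant over control) in bins of 0.25, with values beyond 5 in the end bins. Lower panel, the fold changes of the 30 genes and of 4 further lists of the p53 pathway as points, coloured by the edgeR call, with the median as a black bar at 0.39 for the 30 genes, 0.05, 0.06, -0.19 and -0.82.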

How the data were processed

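RNA-seq reads of 5 laser-captured libraries were analysed. The authors deposited raw counts for 28644 RefSeq transcript rows and FPKM values for those rows, with 1 column per library in each table. Per the submitters' processing notes, build mm9 and edgeR were used; the sources used here do not give the aligner, counting program or strand setting. Symbols turned into dates (41) were restored by transcript. Counts were tested in R 4.3.3 with edgeR 4.0.16 (quasi-likelihood F-test, TMM, default filter on low counts, 3 residual degrees of freedom) and Benjamini-Hochberg adjustment over 19353 rows. SE denotes |log2 fold change| over the root of F. FPKM were tested on a log2 scale (pseudocount 1 or 0.1) with limma 3.58.1. DESeq2 1.42.0, edgeR's exact test, limma-voom, other scalings and filters, and omission of each library were alternatives. The test was checked on simulated data. The chi-square per gene between libraries of a group was 9.94 to 25.2, so none was treated as a duplicate. Amplified reads are not independent molecules. The 30 genes, the lists and the rule for named genes (all 30 accounted for; from the lists, called genes, Gadd45a and Bbc3; 1 further gene is not reported here) were chosen with earlier results of these data known. Promoter windows are from RefSeq, build GRCm38.p6, and exon overlaps from GENCODE M21; the deposited tables carry no coordinates.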

Additional observations from a re-analysis of the deposited data

How the results depend on the processing

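No paired analysis was made, because the sample labels used here name no litter or pair for any library. The mutant libraries (4 and 6) and control libraries (1, 2 and 3) share no replicate number. With FPKM (pseudocount 1, then pseudocount 0.1, then rows averaging at least 1) the 10 rises among the 30 genes became 2, 2 and 4. With 1 library left out they ranged from 5 to 11. A single fall, that of Gtse1, was called with no filter on low counts (1), DESeq2 (1) or the exact test (1), and 0 to 1 with a library left out. Over all genes the 891 rises became 97, 155 and 258 with those FPKM settings and 408 to 1057 with a library left out. The 608 falls became 13, 36 and 131 on FPKM, 935 with no filter, and 170 to 645 with a library left out. Rises were 59.4% of calls, against 88.2% and 81.2% on FPKM with pseudocounts 1 and 0.1, and 70.6% and 72.2% without mutant 4 or mutant 6. The fold change (log2) turned sign in genes that did not pass: Trp53 was at 0.012 with upper-quartile normalization, Sesn1 at -0.029, -0.030 and -0.029 and Ei24 at -0.052, -0.054 and -0.052 on FPKM. With a library left out the range included both signs for Trp53 (-0.041 to 0.0023), Ppm1d (-0.61 to 0.16), Sesn1 (-0.054 to 0.19), Polk (-0.51 to 0.15), Xpc (-0.38 to 0.22) and Ei24 (-0.18 to 0.19). The cause was not tested. The 10 rises kept their direction in each alternative that tested them. Counts of Eda2r, Gdf15, Ephx1 and Phlda3 were low, which limits the precision of their fold changes.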
